A study of Mus musculus with 6 samples.

Results

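Ribosome biogenesis and nucleolar genes were compared between Pax6-deficient and control retinal progenitor cells (RPCs) by 50 listed genes, taken by their gene symbols on the array from 18193 genes with a probe set of their own. The list was chosen for function, as genes whose products work in the nucleolus or assemble ribosomal subunits, but with earlier results of these data known. Each gene was read by its brightest probe set, the one whose mean over the 6 arrays was highest, and all 50 genes had one. Ribosomes are built in the nucleolus, where RNA polymerase I transcribes the precursor of the ribosomal RNAs. Small nucleolar ribonucleoproteins (snoRNPs) then guide the methylation, pseudouridylation and cleavage of this precursor, and large sets of assembly factors fold it with ribosomal proteins into the small and the large subunit. Genes of this pathway are transcribed at high levels in growing and dividing cells, and many of them are known targets of the Myc family of transcription factors, of which Mycn is the member best known in RPCs.

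RNA came from 3 pools of Pax6 loxP/loxP;α-Cre cells, called mutant RPCs, and from 3 pools of Pax6 +/+;α-Cre cells, called control RPCs, each pool on 1 Affymetrix mouse expression array. All mice were of the ICR strain, and eyes were dissociated at embryonic day 12 (E12) and sorted for GFP. The α-Cre transgene is carried by both groups and expresses Cre with GFP from regulatory sequence of Pax6 that is active in the distal (peripheral) optic cup, and by the labels the groups differ in the floxed Pax6 alleles. The pools are described as biological replicates, no source used here gives the number of embryos in a pool, and p-values measure the spread between these pools. The values are log2 of robust multi-array average (RMA) intensities, and a gene was called lower or higher in mutant RPCs at an adjusted p under 0.10 from limma.

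The 6 arrays were alike in scale, with medians of 3.68 to 3.70 on the mutant and 3.69 to 3.71 on the control arrays, and arrays of a group correlated at 0.995 to 0.997 over probe sets. Of 5 Pax6 probe sets, 1 was called lower, with log2 intensities of 4.79, 4.88 and 4.45 on the mutant arrays, against 6.34, 6.44 and 6.14 on the control arrays (log2 fold change -1.60, limma adjusted p = 0.00329). No source used here says which of them detect the floxed exons. Of 9 measured retinal progenitor markers, 4 were lower in mutant RPCs, and their summed linear intensity was 5586 to 5746 on the mutant arrays, against 8083 to 8485 on the control arrays. Early retinal neuron markers were lower for 7 of 9 (summed intensity of 1032 to 1132 in mutant and 2034 to 2672 in control RPCs). Many markers of other tissues were higher in mutant RPCs. Of 10 pigment epithelium markers, 9 were called higher (9038 to 9073 in mutant and 5696 to 6918 in control RPCs). Lens and surface ectoderm markers were higher for 5 of 10 (4987 to 5285 in mutant and 2802 to 3952 in control RPCs). Mesenchyme and neural crest markers were higher for 5 of 10 (844 to 1166 in mutant and 538 to 579 in control RPCs). Endothelial markers were higher for 7 of 10 (1177 to 1259 in mutant and 691 to 918 in control RPCs). Of 9 blood cell markers, only 1 was called higher. All mutant arrays lay above all control arrays for 2 of the 9, against 17.0% of all genes. The summed intensity of the blood cell markers was 6159 to 6697 in mutant and 3306 to 5411 in control RPCs. Over all genes, 5.22% were called lower and 7.15% higher. The defining markers Rpe65 of pigment epithelium, Twist1 of mesenchyme, Pou4f1 of ganglion cells and Hba-a1 of blood lay below the array median on every array. The part of these shifts in the results that follow was not tested, and in bulk RNA fewer cells of a type and less RNA per cell cannot be told apart.

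Expression of the ribosome biogenesis genes was slightly lower across the list in mutant RPCs. Of the 50 genes, 12 were called lower and 0 were called higher, and the median log2 fold change of the list was -0.16. The 12 genes were Rrp12, Lyar, Dkc1, Wdr12, Noc2l, Mybbp1a, Tsr1, Ddx56, Rrp15, Rrp9, Rrp1b and Heatr1, with log2 fold changes of -0.56 to -0.21, which is 1.15-fold to 1.47-fold lower. For comparison, 5.22% of all genes were called lower and 7.15% were called higher, and the median over all genes was -0.01. Among the 9260 genes with a mean log2 intensity of at least 5, a limit chosen after the members' levels of 5.40 to 11.78 had been seen, 8.30% were lower and 10.6% were higher. A negative log2 fold change was found for 47 of the 50 genes, against 52.9% of all genes. At an unadjusted p under 0.05, 28 of the listed genes were lower and 0 were higher, against 11.6% of all genes lower.

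All 3 mutant arrays lay below all 3 control arrays for 37 of the 50 genes, against 16.4% of all genes. All 3 mutant arrays lay above all 3 control arrays for 1 listed gene, Nop10, against 17.0% of all genes. The median over the list of each gene's deviation from its own mean was -0.07, -0.08 and -0.08 on the mutant arrays and 0.05, 0.07 and 0.08 on the control arrays, so that no single array carried the shift. The 38 genes that were not called lower had a median of -0.13, and 35 of them had a negative log2 fold change. The changes were small, since 0 of the 50 genes passed a fold change of 1.5 together with p under 0.05 and an adjusted p under 0.10, thresholds that 0.918% of all genes passed as lower and 2.28% as higher. Which genes were called depended on the arrays used. With 1 array left out, 2 to 6 of the 50 genes were lower, 0 were higher, 46 to 48 had a negative log2 fold change, and 2.13% to 3.77% of all genes were lower. The share of all genes called lower moved with the setting too. It was 2.24% without moderation of the variance, where 5 of the 50 genes were lower, 10.5% after removal of the dimmest 40% of probe sets (21 of the 50), 7.82% with an intensity trend (23 of the 50) and 7.58% on log2(value + 8) (24 of the 50).

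Dkc1 was called lower under each of the 6 omissions. Tsr1 was the only other one without mutant replicate 1, Noc2l without mutant replicate 2 and Mybbp1a without control replicate 3. Rrp12 and Wdr12 were the other ones without mutant replicate 3 and without control replicate 2. Without control replicate 1, Lyar, Noc2l, Ddx56, Rrp15 and Gar1 were lower beside Dkc1. Without mutant replicate 3 or control replicate 2, 1 gene, Rrp12, passed the fold change of 1.5 as well.

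**Figure D1:**
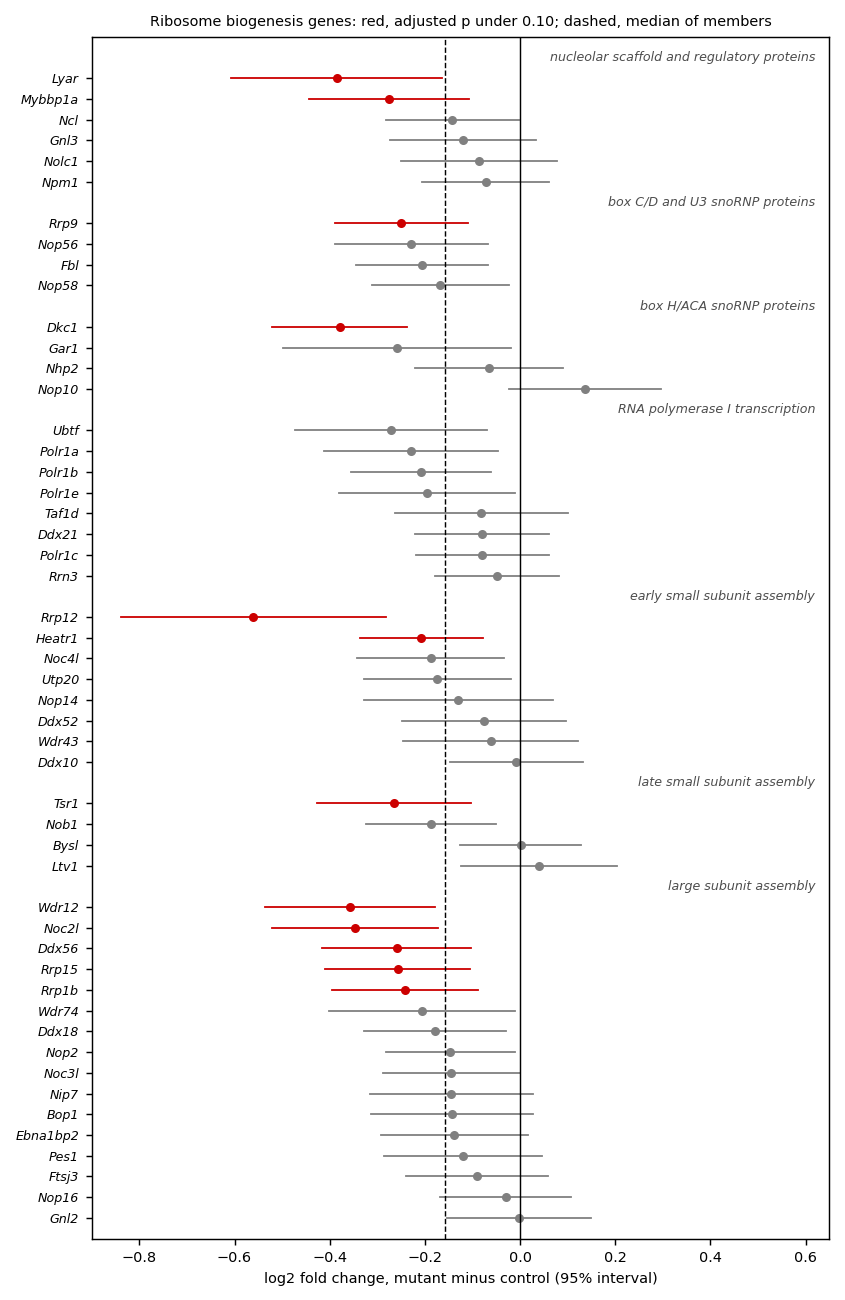
Log2 fold change (mutant minus control, x axis) of the 50 genes by role, with the 95% interval of limma as a line; the 12 genes called lower are red, the rest grey, and the dashed line is the median of the list. All but 3 points lie left of 0, and none lies beyond -0.56 on the left or 0.14 on the right.

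**Figure D2:**
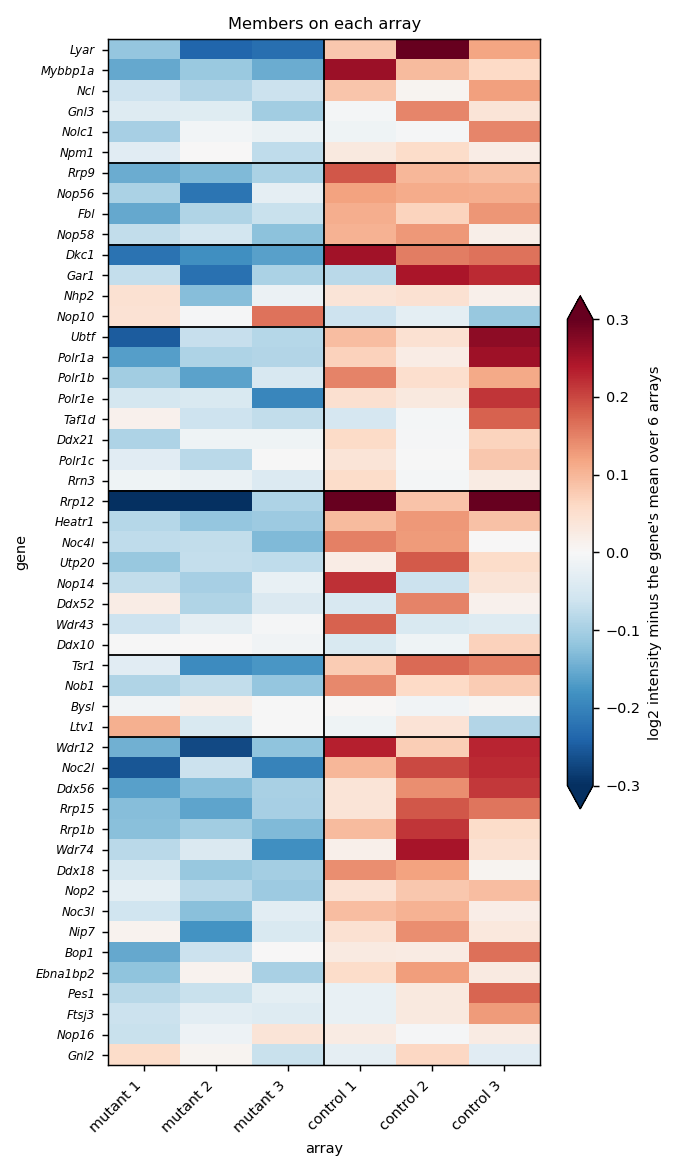
Log2 intensity of each gene minus its own mean over the 6 arrays, with the 3 mutant arrays left of the 3 control arrays and genes grouped by role. Most rows are below their mean (blue) on the mutant arrays and above it (red) on the control arrays, and the row of Nop10 runs the other way.

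Among nucleolar scaffold and regulatory proteins, 2 of 6 were lower in mutant RPCs, against 5.22% of all genes. All 6 log2 fold changes were negative (median -0.13), against 52.9% of all genes. Lyar, a zinc finger protein of the nucleolus that is expressed in growing cells, had log2 intensities of 7.87, 7.75 and 7.76 on the mutant arrays, against 8.07, 8.37 and 8.10 on the control arrays. Its groups did not overlap, and it was 1.31-fold lower (log2 fold change -0.39 ± 0.09 SE, limma adjusted p = 0.0648). Mybbp1a, a nucleolar protein that binds the transcription factor Myb, had 8.98, 9.03 and 8.99 in mutant RPCs, against 9.39, 9.23 and 9.20 in control RPCs. The mutant arrays lay within a narrow range below every control array, and Mybbp1a was 1.21-fold lower (log2 fold change -0.27 ± 0.07 SE, limma adjusted p = 0.0774). The gene with the highest mean signal of the list, Npm1, encodes nucleophosmin, an abundant chaperone that shapes the granular part of the nucleolus. Npm1 had 11.75, 11.78 and 11.70 on the mutant arrays, against 11.81, 11.84 and 11.80 on the control arrays. Its groups did not overlap either, but the log2 fold change was only -0.07 and did not pass (limma adjusted p = 0.521). The mean log2 intensity of 11.78 is near the top of the array, where a change may be compressed. The other probe set of Npm1, with a mean of 11.59, had -0.01. Nucleolin (Ncl), which binds the precursor ribosomal RNA, the snoRNP chaperone Nolc1 and the progenitor-cell GTPase nucleostemin (Gnl3) had log2 fold changes of -0.14, -0.09 and -0.12, none of them past the test.

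The box C/D snoRNPs methylate ribose at sites that their guide RNAs pair with, and the U3 snoRNP directs early cleavages. All 4 of their protein genes had mutant arrays below all control arrays (median log2 fold change -0.22), against 16.4% of all genes. Against 5.22% of all genes, 1 of the 4 was called lower. This was Rrp9, the protein particular to the U3 particle, with 6.56, 6.57 and 6.61 in mutant RPCs, against 6.89, 6.80 and 6.79 in control RPCs. Rrp9 was 1.19-fold lower (log2 fold change -0.25 ± 0.06 SE, limma adjusted p = 0.0606). The methyltransferase fibrillarin (Fbl) had 9.89, 9.95 and 9.97 in mutant RPCs, against 10.15, 10.11 and 10.17 in control RPCs, and narrowly missed the threshold (log2 fold change -0.21, limma adjusted p = 0.101). The core proteins Nop56 and Nop58 had log2 fold changes of -0.23 and -0.17 without passing.

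The box H/ACA snoRNPs convert uridines of the ribosomal RNA to pseudouridine. Of their 4 protein genes, 1 was called lower, against 5.22% of all genes. Dkc1, the pseudouridine synthase dyskerin, had 7.75, 7.78 and 7.81 on the mutant arrays, against 8.22, 8.12 and 8.13 on the control arrays. The gap between the groups was wide for its spread, and Dkc1 had the smallest adjusted p of the list, at 1.30-fold lower (log2 fold change -0.38, 95% interval of -0.52 to -0.24, limma adjusted p = 0.0187). Nop10, a small protein that binds dyskerin in the same particle, had 10.16, 10.12 and 10.28 in mutant RPCs, against 10.06, 10.09 and 10.01 in control RPCs. Here the mutant arrays lay above the control arrays, but the interval held 0 (log2 fold change 0.14, 95% interval of -0.02 to 0.30, limma adjusted p = 0.309). Gar1, with a log2 fold change of -0.26, and Nhp2, with -0.07, had overlapping groups and did not pass. The other probe set of Nhp2 had its mutant arrays below all control arrays, at -0.16 (limma adjusted p = 0.148). Whether Nop10 and Dkc1 differed in their change was not tested.

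Genes of RNA polymerase I transcription had 0 of 8 called lower, against 5.22% of all genes. All 8 log2 fold changes were negative (median -0.14), against 52.9% of all genes. Mutant arrays lay below all control arrays for 7 of the 8, against 16.4% of all genes. At an unadjusted p under 0.05, 4 of the 8 were lower, against 11.6% of all genes. Polr1b, a subunit of the catalytic core, had 6.33, 6.27 and 6.39 in mutant RPCs, against 6.58, 6.49 and 6.55 in control RPCs, and the smallest p of the group (log2 fold change -0.21, limma adjusted p = 0.113). Polr1a, which encodes the largest subunit, the promoter factor Ubtf and the subunit Polr1e had log2 fold changes of -0.23, -0.27 and -0.20. Polr1c, which RNA polymerase I shares with RNA polymerase III, had 8.64, 8.59 and 8.67 in mutant RPCs, against 8.71, 8.67 and 8.76 in control RPCs (log2 fold change -0.08, limma adjusted p = 0.5). The groups of Polr1c were separate but close together. The initiation factor Rrn3, the promoter complex subunit Taf1d and the nucleolar helicase Ddx21 had log2 fold changes of -0.05, -0.08 and -0.08.

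In early small subunit assembly, 2 of 8 genes were lower, against 5.22% of all genes. All 8 log2 fold changes were negative (median -0.15), against 52.9% of all genes. Rrp12, known from yeast for processing and nuclear export of the subunits, had 5.22, 5.14 and 5.46 on the mutant arrays, against 5.88, 5.64 and 5.98 on the control arrays. This was the largest difference of the list, 1.47-fold lower, with the largest standard error as well (log2 fold change -0.56 ± 0.12 SE, limma adjusted p = 0.044). Heatr1, whose yeast counterpart belongs to the complex that first binds the growing precursor RNA, had 7.54, 7.51 and 7.52 in mutant RPCs, against 7.72, 7.76 and 7.72 in control RPCs. Both groups were tight, and a change of 1.15-fold passed (log2 fold change -0.21 ± 0.05 SE, limma adjusted p = 0.0813). Wdr43, of the same early complexes and with the highest mean signal of this role, had 7.76, 7.80 and 7.82 in mutant RPCs, against 8.004, 7.78 and 7.79 in control RPCs. Its groups overlapped, since only control replicate 1 stood above the mutant arrays (log2 fold change -0.06, limma adjusted p = 0.701). The others, Utp20, Nop14, Noc4l and the helicases Ddx52 and Ddx10, had log2 fold changes of -0.17, -0.13, -0.19, -0.08 and -0.01.

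In late small subunit assembly, 1 of 4 genes was lower, against 5.22% of all genes. By their brightest probe sets, 2 of the 4 log2 fold changes were negative, against 52.9% of all genes. Tsr1, a factor related to GTPases that rides on the late small subunit precursor, had 7.93, 7.78 and 7.79 on the mutant arrays, against 8.04, 8.13 and 8.12 on the control arrays. Mutant replicate 1 lay nearest to the control arrays without reaching them, and Tsr1 was 1.20-fold lower (log2 fold change -0.27 ± 0.07 SE, limma adjusted p = 0.0777). The endonuclease Nob1, which makes the last cut of the small subunit RNA, had a log2 fold change of -0.19 that did not pass (limma adjusted p = 0.121). Bysl and Ltv1, both factors of the late precursor, had 0.00 and 0.04 with overlapping groups. The other probe set of Bysl had its mutant arrays below all control arrays, at -0.22 (limma adjusted p = 0.132).

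Large subunit assembly held 5 of the 12 lower genes among its 16, while 5.22% of all genes were lower. Of the 16, 14 had mutant arrays below all control arrays (median log2 fold change -0.15), against 16.4% of all genes. Wdr12, which forms the PeBoW complex with Pes1 and Bop1, had 6.98, 6.86 and 7.01 in mutant RPCs, against 7.36, 7.20 and 7.36 in control RPCs. It was 1.28-fold lower (log2 fold change -0.36 ± 0.08 SE, limma adjusted p = 0.0438), while its partners Pes1 and Bop1 had -0.12 and -0.14 and did not pass. Noc2l, whose yeast counterpart escorts large subunit precursors through the nucleus, had 6.77, 6.96 and 6.83 in mutant RPCs, against 7.13, 7.22 and 7.25 in control RPCs. Its groups were well apart, 1.27-fold (log2 fold change -0.35 ± 0.07 SE, limma adjusted p = 0.0452). Ddx56, a nucleolar RNA helicase, had 6.59, 6.62 and 6.65 in mutant RPCs, against 6.79, 6.89 and 6.96 in control RPCs, and was 1.20-fold lower (log2 fold change -0.26, limma adjusted p = 0.0766). Rrp15 and Rrp1b, both named for yeast factors of ribosomal RNA processing, completed the 5 lower genes with log2 fold changes of -0.26 (limma adjusted p = 0.0714) and -0.24 (limma adjusted p = 0.0848). The gene with the highest mean signal of this group, Nip7, had 8.44, 8.25 and 8.39 in mutant RPCs, against 8.48, 8.57 and 8.47 in control RPCs. Mutant replicate 1 of Nip7 came close to the control arrays, and the difference did not pass (log2 fold change -0.14, limma adjusted p = 0.316). Of the remaining genes, Wdr74, Ddx18, Nop2, Noc3l, Ebna1bp2 and Ftsj3 had log2 fold changes of -0.21, -0.18, -0.15, -0.14, -0.14 and -0.09 with separate groups. Nop16 (-0.03) and Gnl2 (0.00) had overlapping groups. Differences between the roles were not tested.

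**Figure D3:**
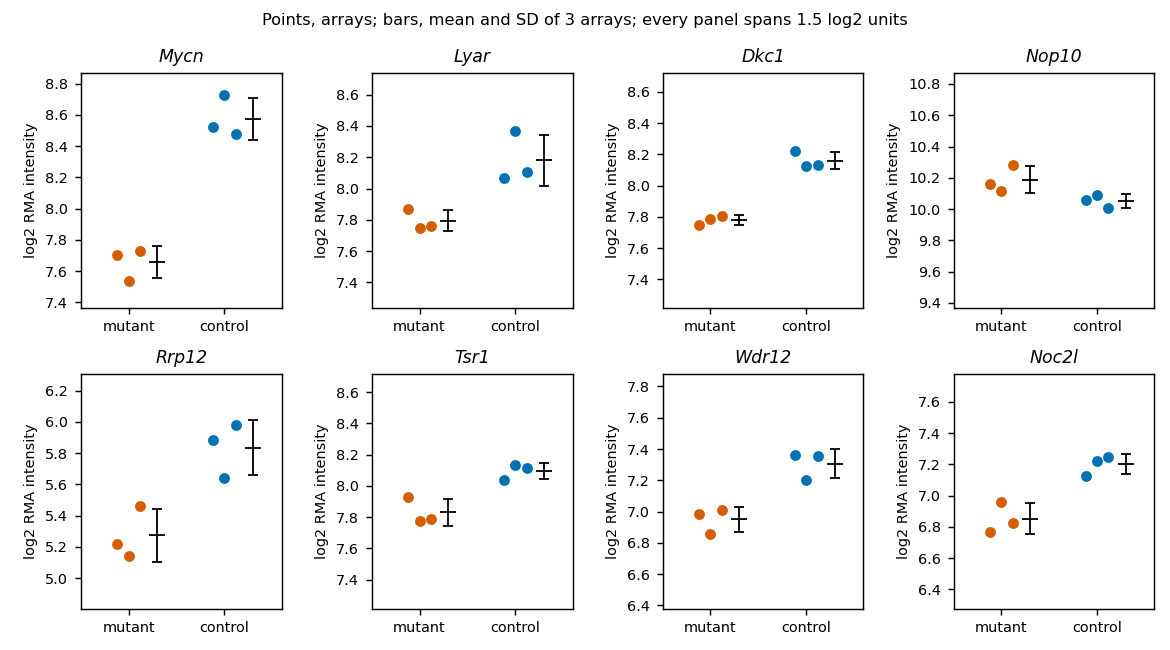
Log2 RMA intensity on each array for Mycn and 7 of the genes, with mutant arrays left of control arrays, points for arrays, bars for the mean and SD of 3 arrays, and an axis span of 1.5 log2 units in every panel. Mycn shows a gap of 0.92 between the group means, Rrp12 one of 0.56, and Nop10 alone has its mutant arrays above its control arrays.

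Probe sets that did not represent a gene gave a second reading of the same RNA. The 50 genes had 104 probe sets, of which 92 had negative log2 fold changes, 18 were called lower and 0 higher, while 4.55% of all 45037 probe sets were called lower. In terms of the fold change of 1.5 and both p thresholds, 0.984% of all probe sets were lower and 1.67% were higher. Several probe sets were present for 33 genes, and for 24 of these all were negative. Among the 41 further probe sets with a mean log2 intensity of at least 5, 36 were negative and 6 were called lower, with a median of -0.15. This median was close to that of the brightest probe sets, but these probe sets were read on the same arrays and are not independent samples.

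Dkc1 fell by 2 of its 3 probe sets, the further ones having log2 fold changes of -0.43 (limma adjusted p = 0.0231) and -0.35 (limma adjusted p = 0.136). Rrp1b likewise fell by a further probe set, with -0.38 (limma adjusted p = 0.0553). By another probe set only, 4 genes were lower. These were Nop56 (-0.31, limma adjusted p = 0.0558), Polr1c (-0.31, limma adjusted p = 0.0822), Taf1d (-0.34, limma adjusted p = 0.0252) and Ddx18 (-0.26, limma adjusted p = 0.0774), so that 2 genes of RNA polymerase I transcription were called by a dimmer probe set. Calls by the brightest probe set were not shared by the other probe sets of Wdr12 (-0.30 and -0.01), Noc2l (-0.46), Mybbp1a (-0.25), Tsr1 (-0.12) and Heatr1 (-0.13 and 0.16), none of which passed. Probe sets with a positive log2 fold change, none of them called, were found for Wdr43 (0.05), Nip7 (0.07), Noc3l (0.21), Ebna1bp2 (0.03), Ddx18 (0.00) and Gnl2 (0.03 and 0.07) beside the brightest. The upward reading of Nop10 was the same by its other probe set, at 0.16 (limma adjusted p = 0.238).

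**Figure D4:**
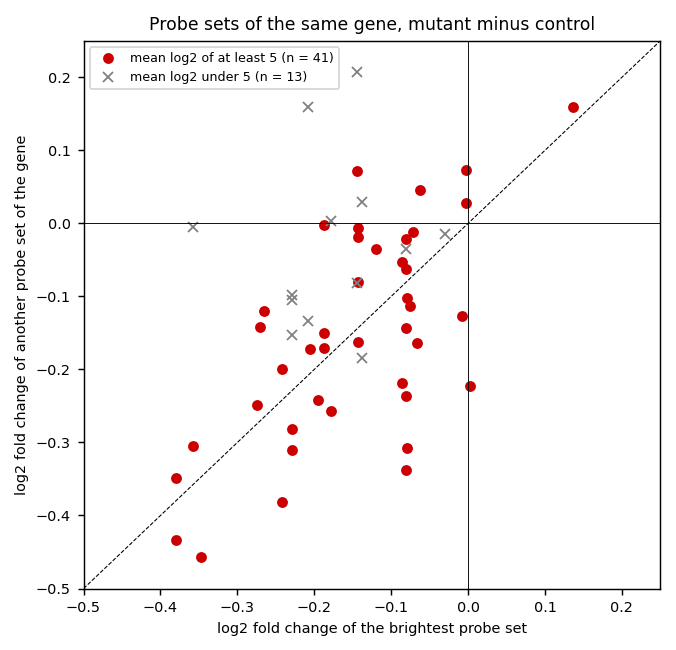
Log2 fold change (mutant minus control) of a gene's brightest probe set on the x axis against those of its further probe sets on the y axis. Circles are the 41 further probe sets with a mean log2 intensity of at least 5, and crosses are the dimmer ones. Of the 54 points, 45 lie below 0 on the y axis, and of the 41 circles, 36 do.

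Mycn, beside whose fall the list was set, had a larger log2 fold change than any of the 50 genes. Its brightest probe set had 7.70, 7.54 and 7.73 on the mutant arrays, against 8.52, 8.73 and 8.48 on the control arrays. The groups were far apart, and Mycn was 1.89-fold lower (log2 fold change -0.92 ± 0.09 SE, limma adjusted p = 0.00521). The 2 dimmer Mycn probe sets gave -0.14 (limma adjusted p = 0.242) and -0.10 (limma adjusted p = 0.501), so that the fall rests on 1 probe set. The relatives Myc and Mycl had log2 fold changes of -0.10 and 0.01, and Max, the partner with which all Myc proteins bind DNA, had 0.13, none of them past the test. Among 11 genes of the Myc network, Mycn was the only one lower and 2 were higher, against 5.22% and 7.15% of all genes. These counts are too small to be read as a shift of the network. The 2 higher genes, Mxd4 and Mxd1, encode partners of Max that oppose Myc at its sites. Mxd4 had 7.48, 7.46 and 7.37 in mutant RPCs, against 7.04, 7.15 and 7.16 in control RPCs (log2 fold change 0.32 ± 0.07 SE, limma adjusted p = 0.0411). Mxd1 had 6.40, 6.59 and 6.54 in mutant RPCs, against 6.18, 6.24 and 6.24 in control RPCs (log2 fold change 0.29 ± 0.07 SE, limma adjusted p = 0.066). Both lay above every control array. Whether the ribosome biogenesis genes moved because of Mycn was not tested, since both were read in the same 6 pools.

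Dimers of Myc and Max bind the E-box, whose canonical form is the 6-base palindrome CACGTG, the same on both strands. This sequence was sought in the RefSeq promoters of build GRCm38.p6, from 250 bases before to 50 bases after the start of a gene, which held 45 of the 50 genes. It was present in 8 of the 45 (17.8%), in 2 of the 11 matched genes that were lower (18.2%) and in 6 of the 34 matched genes that were not (17.6%). Among other ribosome biogenesis genes, 17 of 81 (21%) held it. Of the promoters of genes on the array, 1473 of 14369 (10.3%) held it, and of all RefSeq promoters supplied, 2187 of 27025 (8.09%). Whether these shares differed was not tested, and that of the lower genes rests on few genes. A match describes the letters only and is no evidence of binding in RPCs. The windows of 30 bases around the matches are shown because they hold the letters that such dimers bind, with the E-box in capitals and each window read 5′ to 3′ on the strand of its gene.
Mybbp1a, chr11:72441347-72441376 (+): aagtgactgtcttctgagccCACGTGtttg
Tsr1, chr11:74898092-74898121 (+): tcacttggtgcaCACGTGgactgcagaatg
Pes1, chr11:3963965-3963994 (+): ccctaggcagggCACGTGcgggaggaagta
Nop2, chr6:125131811-125131840 (+): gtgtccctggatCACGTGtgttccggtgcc
Wdr43, chr17:71616220-71616249 (+): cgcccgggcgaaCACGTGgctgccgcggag
Utp20, chr10:88826765-88826794 (-): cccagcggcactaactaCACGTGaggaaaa
Ltv1, chr10:13193092-13193121 (-): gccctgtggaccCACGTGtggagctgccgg
Rrn3, distal, chr16:13780472-13780501 (+): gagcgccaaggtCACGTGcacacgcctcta
Rrn3, proximal, chr16:13780639-13780668 (+): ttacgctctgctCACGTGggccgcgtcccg

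The E-box began 41 bases after the annotated start in Mybbp1a and 25 bases after it in Tsr1. In Pes1, Wdr43, Ltv1 and Utp20 it began 3, 18, 29 and 38 bases after the start, and in Nop2 60 bases before it. Rrn3 was the only gene with a pair of E-boxes, 215 and 48 bases before its start, and its log2 fold change was -0.05. Ltv1 had its E-box close to the start too, with a log2 fold change of 0.04. Of the 8 genes, 7 had log2 fold changes of -0.27 to -0.05.

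Most of the rest of the pathway had the same direction. Of 104 other ribosome biogenesis genes, 100 were measured. Of these, 18 were lower and 1 was higher, against 5.22% and 7.15% of all genes. A negative log2 fold change was found for 84, against 52.9% of all genes, and the median was -0.13. With 1 array left out, 5 to 12 of these genes were lower, against 2.13% to 3.77% of all genes. The largest fall was that of Rpf2, a large subunit assembly factor, with 5.999, 5.44 and 5.92 in mutant RPCs, against 6.44, 6.37 and 6.34 in control RPCs. Rpf2 was the only one of the 100 past the fold change of 1.5 (log2 fold change -0.59 ± 0.14 SE, limma adjusted p = 0.0638), and mutant replicate 2 lay lowest. Tcof1 encodes treacle, a nucleolar cofactor of RNA polymerase I. It had 6.47, 6.62 and 6.65 in mutant RPCs, against 7.001, 7.14 and 7.10 in control RPCs (log2 fold change -0.50, limma adjusted p = 0.0161). Exosc2, Exosc1 and Exosc3, subunits of the RNA exosome that trims ribosomal RNA, followed with log2 fold changes of -0.50, -0.47 and -0.44 (adjusted p = 0.0132, 0.0129 and 0.0228 from limma). Naf1, an assembly factor of the H/ACA snoRNPs, was the only higher one, with 8.31, 8.31 and 8.20 in mutant RPCs, against 7.97, 8.06 and 8.06 in control RPCs (log2 fold change 0.24, limma adjusted p = 0.0839).

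Ribosomal proteins of the cytosol, the components that these factors assemble, had 0 genes called in either direction. Of 76 listed, 43 had a probe set of their own, 0 were lower and 0 were higher by limma, and 1 was lower at an unadjusted p under 0.05. Their median log2 fold change was 0.01, with a range of -0.25 to 0.12. Their readings limit what this shows. Of the 43 probe sets, 34 had a mean log2 intensity of at least 11, near the highest of any gene (12.91), where a change may be compressed. The 9 probe sets below 11 had a median log2 fold change of -0.005, and Rps16, 1 of them, lay at 2.12. Stability of the ribosomal protein genes was therefore not shown. Genes of S phase and DNA replication, another set that is high in dividing cells, were lower for 19 of 25, with a median of -0.33. Over all genes, 5.22% were lower. The dependence of the shift of the 50 genes on the number of dividing cells in the sort was not tested, and differences between the lists were not tested.

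**Figure D5:**
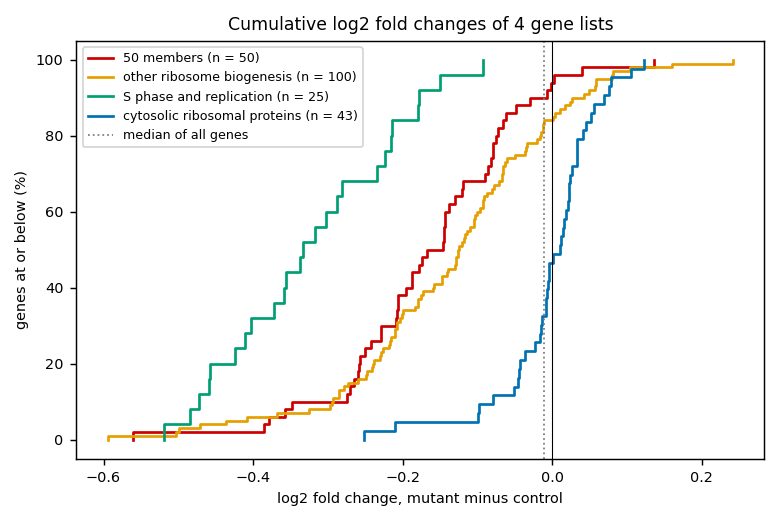
Cumulative share of genes (y axis, percent) at or below each log2 fold change (mutant minus control, x axis) for the 50 genes, 100 other ribosome biogenesis genes, 25 S phase genes and 43 cytosolic ribosomal protein genes, with the median of all genes dotted. The curves of both ribosome biogenesis lists lie mostly left of 0, with medians of -0.16 and -0.13, and cross it. The curve of S phase genes lies farther left, with a median of -0.33, and that of ribosomal proteins is centred at 0.01.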

How the data were processed

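Sorted GFP-positive cells of 3 mutant and 3 control pools were profiled. The authors summarised probe sets by RMA, which corrects background and normalises between arrays, and deposited intensity values on a linear scale. Log2 of the deposited intensity was taken, 64 of 45101 probe sets were left out as controls, and 45037 were tested with limma 3.58.1 (R 4.3.3; lmFit and eBayes, no covariate), with Benjamini-Hochberg adjustment over all of them. Of these, 34945 had 1 gene symbol, 932 several and 9160 none. A call needed an adjusted p under 0.10. A gene was represented by its brightest probe set with 1 symbol. Values on every array are given for the 3 largest called changes (or the smallest p) and the highest mean signal in each role, and for Mycn. The members and all lists were chosen with earlier results of these data known. The script was tested on simulated data. Alternatives covered scaling, moderation, filters, probe sets, a replicate block and leaving out each array. Arrays have no depth, and their number limits precision.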

Additional observations from a re-analysis of the deposited data

How the results depend on the processing

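Dkc1 was lower under all 17 alternatives (adjusted p of 0.00192 to 0.0773 from limma), and no alternative called any of the 50 genes higher. Against 12 lower genes of the list and 18 of the other ribosome biogenesis genes, with 5.22% of all genes, the counts were 5 and 10 without moderation of the variance (2.24% of genes), 23 and 32 with an intensity trend (7.82%), 21 and 28 after removal of the dimmest 40% of probe sets (10.5%), and 24 and 30 on log2(value + 8) (7.58%). The replicate numbers did not pair the arrays (correlations of deviations of -0.01, -0.00 and -0.01), and with a replicate block 4 and 8 were lower (3.17% of genes). An alternative chosen after seeing the data, adjusting over genes by their brightest probe sets, gave 16 (6.35% of genes). The median of -0.16 became -0.15 with array medians subtracted, -0.17 after quantile normalization and -0.17 without probe sets ending in _x_at or _s_at. With the median of a gene's probe sets, Mycn was at -0.14 (adjusted p = 0.193 from limma). Without 1 array, 2 to 6 listed and 5 to 12 other genes were lower, 0 to 1 passed the fold change of 1.5, the median was -0.17 to -0.15, Mycn was -0.97 to -0.84, and Wdr43 was -0.10 to 0.0109, positive only without control replicate 1. The causes of these differences were not tested. Of the values for single named genes, 215 kept their side of the threshold, 61 no longer passed, 11 passed newly and 1 reversed.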

Other observations

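Subunits of the RNA exosome, which degrades and trims nuclear RNA including the ribosomal precursors, were picked out after their values had been seen. Of 8 subunit genes measured, 4 were lower in mutant RPCs, Exosc1, Exosc2, Exosc3 and Exosc7, the last at -0.24 on the log2 scale (limma adjusted p = 0.0607). Over all genes 5.22% were lower, and 8.30% of those with a mean log2 intensity of at least 5, but the choice of these subunits after their values leaves nothing to read from the difference. The nuclease subunit Exosc10 had -0.13, and Exosc5, Exosc8 and Exosc9 had -0.13, -0.21 and -0.21, none of which passed. Among subunits of the promoter complex of RNA polymerase I, Taf1a was lower, at -0.28 (limma adjusted p = 0.0986), while Taf1c (-0.27) and Taf1b (-0.06) did not pass.

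The array also carries control probe sets for the small subunit ribosomal RNA, which were not part of any comparison above. The probe set at its 3′ end read 9.32, 9.16 and 9.0001 on the mutant arrays, against 9.62, 9.70 and 10.24 on the control arrays, a difference of -0.69 in log2 intensity. The middle probe set read 8.59, 8.42 and 8.43 in mutant RPCs, against 8.74, 8.63 and 9.29 in control RPCs. The 5′ probe set read 11.28, 11.47 and 11.34 in mutant RPCs, against 11.37, 11.27 and 11.48 in control RPCs, with overlapping groups and a difference of -0.01. Control replicate 3 was the highest array on all 3 probe sets. Standard labelling for such arrays starts from poly(A), which mature ribosomal RNA lacks, and these readings are not given as a measure of its amount. The difference of the 3′ over the 5′ probe set of actin was 0.29, 0.26 and 0.26 in mutant RPCs, against 0.29, 0.30 and 0.32 in control RPCs.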
